A study of Mus musculus with 4 samples.

Results

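The 10 genes described here, Ncr1, Klrb1c, Klrd1, Klre1, Gzma, Gzmb, Prf1, Nkg7, Eomes and Tbx21, are genes of natural killer (NK) cells and of cytotoxic granules. They were chosen by symbol, and each symbol was represented by its transcript with the highest count summed over the 4 libraries. All 10 were among the 24063 gene symbols of the tables, and all 10 passed the filter on low counts with 16208 genes in all. RNA was measured in endothelial cells (ECs) isolated with magnetic beads against CD31 from mouse lungs. The mice were C57BL6 (C57BL6J in the design), 8 weeks old and labelled male, a label that the sex-linked genes below go against. The 2 post-PNX libraries came from lungs taken 7 days after left unilateral pneumonectomy (PNX), an operation after which the remaining lung grows, and the 2 sham libraries from mice that had a thoracotomy without PNX. Each library pooled the cells of 2 mice, no other mice or treatment entered the comparison, and all p-values measure the spread between these libraries.

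NK cells are lymphocytes that kill stressed, infected or transformed cells without prior priming. They weigh activating and inhibitory surface receptors, among them the C-type lectin family encoded in the NK gene complex on chromosome 6, and then release granules in which perforin opens the target membrane and granzymes enter and trigger cell death. The T-box factors Eomes and T-bet direct their development. Lungs hold a large pool of NK cells in their vessels. CD8 T cells and other innate lymphocytes share the granule genes and the T-box factors, so that the 10 genes mark cytotoxic lymphocytes as a class and not NK cells alone.

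Promoters are shown for 4 of the genes because the letters bound by the factors of cytotoxic lymphocytes can be seen in them next to genes whose RNA is given below. Each run is the 250 bases before an annotated start in RefSeq on GRCm38.p6 (the assembly that mm10 names), 5′ to 3′ on the gene's own strand. Capitals mark a match on either strand to a T-box motif (AGGTGTGA), a RUNX motif (TGTGGTT) or an AP-1 motif (TGANTCA). The windows are chr7:4337465-4337714 on the plus strand for Ncr1, chr13:113100982-113101231 on the minus strand for Gzma, chr14:56262335-56262584 on the minus strand for Gzmb and chr7:43436888-43437137 on the plus strand for Nkg7.
Ncr1: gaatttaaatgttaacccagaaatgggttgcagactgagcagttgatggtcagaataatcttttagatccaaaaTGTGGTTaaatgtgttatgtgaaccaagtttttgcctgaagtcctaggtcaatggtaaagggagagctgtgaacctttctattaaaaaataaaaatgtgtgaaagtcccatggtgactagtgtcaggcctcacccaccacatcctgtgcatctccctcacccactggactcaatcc
Gzma: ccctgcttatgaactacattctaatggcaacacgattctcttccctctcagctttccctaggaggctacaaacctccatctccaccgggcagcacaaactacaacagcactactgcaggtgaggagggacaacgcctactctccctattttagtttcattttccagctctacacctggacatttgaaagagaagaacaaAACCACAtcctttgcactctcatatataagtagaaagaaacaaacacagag
Gzmb: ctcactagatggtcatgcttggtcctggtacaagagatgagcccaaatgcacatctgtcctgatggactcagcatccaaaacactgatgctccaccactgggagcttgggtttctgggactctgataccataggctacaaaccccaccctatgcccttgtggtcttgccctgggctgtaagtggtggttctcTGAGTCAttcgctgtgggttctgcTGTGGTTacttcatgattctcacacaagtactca
Nkg7: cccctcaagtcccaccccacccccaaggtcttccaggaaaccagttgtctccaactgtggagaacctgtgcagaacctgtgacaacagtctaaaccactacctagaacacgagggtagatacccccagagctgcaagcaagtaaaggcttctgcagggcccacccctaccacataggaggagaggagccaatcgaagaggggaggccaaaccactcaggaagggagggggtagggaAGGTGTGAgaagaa

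The T-box letters started 14 bases before the Nkg7 start and were in the window of no other member with a promoter, of which there were 9. They were in 1.12% of all 32851 promoters. The RUNX letters were in 4 of the 9 members, 176 bases before the start in Ncr1, 51 in Gzma, 34 in Gzmb and 229 in Klre1, and in 4.4% of all promoters. Ncr1 and Klre1 had a second annotated start, with the RUNX letters 185 bases before it in Ncr1 and absent in Klre1. Members were counted by gene, with a match at any start, whereas the shares count promoters. In Gzmb the AP-1 letters, found in 6.75% of all promoters, stood 58 bases before the start, just upstream of the RUNX letters. Of the other motifs searched, ETS (AGGAAGT) was in 2 members and 7.69% of all promoters, STAT (TTCNNNGAA) in 1 and 7.02%, and the NFIL3 motif TTACGTAA in 0 and 0.113%. The motifs were settled after a first search of these promoters, so the shares describe the letters and are not a test. None of the letters shows that a factor was bound, and no promoter of Klrd1 was among the sequences used here.

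Depth was similar in the libraries, with 50952879 and 45261208 counts on genes in the sham pair and 46783725 and 41367438 in the post-PNX libraries, 1 transcript being taken per gene. The endothelial genes Pecam1 (CD31) and Cdh5 were among the most abundant, with mean TPM (a level scaled to transcript length) of 954 and 959 in sham ECs. Ptprc, which encodes the pan-leukocyte antigen CD45, was at 72.0 TPM in sham and 70.2 TPM in post-PNX ECs, although the methods describe the ECs as checked to be CD45-. Leukocyte RNA was thus read in all 4 libraries. The 44 genes of the Y chromosome had 0 counts in every library and Xist had at least 31872 normalized counts in each, against the labelled male sex in both groups alike.

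Cytotoxic lymphocyte RNA was low but measurable in the CD31-selected cells, and little of it differed between post-PNX and sham ECs. By the quasi-likelihood test of edgeR, with p adjusted by Benjamini-Hochberg over all genes, 1 of the 10 members, Klrd1, fell after PNX at an adjusted p under 0.01 and 0 rose. Of all genes tested, 27.8% fell and 29.3% rose by this rule. Called genes, with an adjusted p under 0.01 and a change of more than 1 on the log2 scale, made up 1.66% of all genes in the lower and 5.9% in the higher direction, and included 0 of the 10 members. At an unadjusted p under 0.05, 3 members were lower (Klrd1, Ncr1 and Prf1) and 0 higher, and DESeq2's Wald test called 0 members, put 1 past its adjusted p and had 1 at that unadjusted p. The fitted log2 fold change was below 0 in 9 members and above 0 in 1, with a median of -0.14 beside 0.00 over all genes. The 2 post-PNX libraries lay below both sham libraries in 5 members and above both in 0, where 40.5% of all genes lay below and 40.8% above without overlap. The share of members below was thus near that of all genes, while the share above was smaller than that of all genes.

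The 95% intervals come from the fit with the usual library scaling (TMM) and cover the spread between these libraries, not the choice of scaling. For all 10 members the interval lay between -0.79 and 0.49 on the log2 scale, inside the limits of -1 and 1 at which a gene was called. It included 0 for 7 members, for which a difference was not detectable at this depth and number of libraries and is not shown to be absent. Summed over the 10 genes, there were 42.3 and 43.1 CPM (counts scaled to the library total) in the sham pair against 40.4 and 36.2 after PNX. The summed level after PNX was 89.6% of the sham mean, and the second post-PNX library was the lowest of the 4. In bulk samples fewer cells of a type and less RNA per cell cannot be told apart, here or in any value below.

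**Figure D1:**
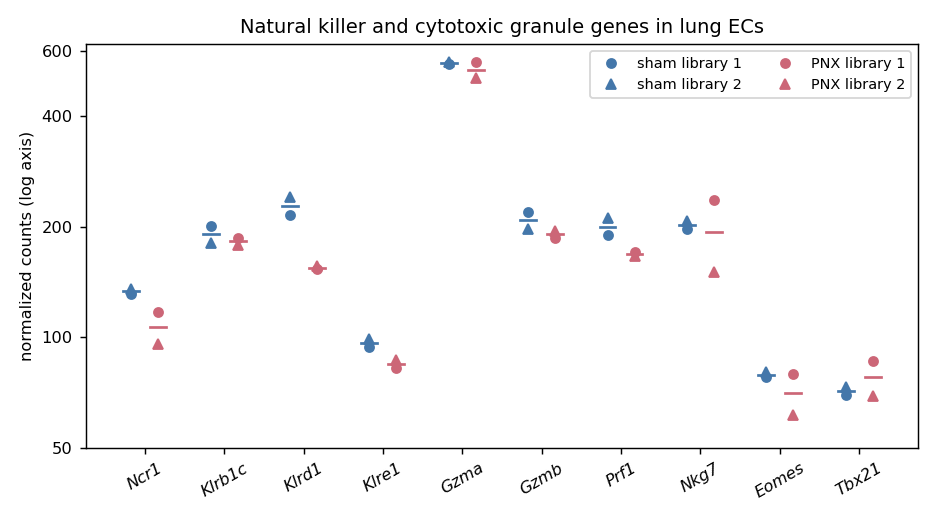
Normalized counts (log axis) of the 10 NK and granule genes in each of the 4 libraries, with sham libraries as blue and post-PNX libraries as red points, circles and triangles for replicates 1 and 2, and a line at the mean of each group. Klrd1 is the gene whose groups stand furthest apart, while the post-PNX points of Nkg7 (236 and 150.4) enclose both sham points (197 and 207).

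Among the receptors, Klrd1 fell. Klrd1 encodes CD94, the invariant chain that pairs with NKG2 proteins to read the nonclassical class I molecule Qa-1, and lies on chromosome 6 from 129588092 to 129598775. Its normalized counts (counts scaled to the mean library) were 216 and 241 in the sham pair against 153 and 156 after PNX. Both post-PNX values were well below both sham values and close to each other. The mean went from 228 ± 17.7 to 155 ± 1.91 (SD, n = 2 per group), which is 32.0% lower. Its log2 fold change was -0.56 (SE 0.11, 95% interval -0.79 to -0.33), with an adjusted p of 2.2e-05 by the edgeR quasi-likelihood test. The adjusted p of Klrd1 stayed under 0.01 with each library left out in turn, at log2 fold changes of -0.64 to -0.48, but not when libraries were scaled to endothelial marker genes (-0.32, edgeR adjusted p = 0.012).

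Ncr1 encodes NKp46, the natural cytotoxicity receptor used as a defining NK cell marker, on chromosome 7 from 4337715 to 4345184. It had 131 and 136 normalized counts in sham ECs and 117 and 95.8 in post-PNX ECs. The groups did not overlap, but the post-PNX libraries lay further apart than the sham pair. The means were 133 ± 2.98 and 106 ± 14.9 (SD, n = 2), and the log2 fold change of -0.32 (SE 0.14, interval -0.60 to -0.03) did not pass, with an adjusted p of 0.046 in the edgeR quasi-likelihood test.

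Klre1, on chromosome 6 from 129559365 to 129585828, is the neighbour of Klrd1 and encodes a receptor chain that works with the Klri proteins. Its normalized counts were 94.2 and 98.9 in sham and 82.5 and 86.9 in post-PNX ECs. The 2 groups were close but did not overlap, with a log2 fold change of -0.19 (SE 0.16, edgeR adjusted p = 0.31). Klrb1c encodes NK1.1, the antigen by which NK cells are sorted in C57BL6 mice, and lies on chromosome 6 from 128778485 to 128788641. It had 201 and 180 normalized counts in sham and 187 and 178 in post-PNX ECs. Here the groups overlapped and the log2 fold change was -0.07 (SE 0.11, interval -0.29 to 0.16, edgeR adjusted p = 0.63).

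Of the 4 granule genes, none passed the edgeR threshold of an adjusted p under 0.01. Gzma, the granzyme with tryptase activity, was the most abundant member, with 556 and 563 normalized counts in sham ECs and 560 and 509 in post-PNX ECs. The first post-PNX library lay between the sham libraries and the second below them. Its log2 fold change was -0.06 (SE 0.07, interval -0.20 to 0.08, edgeR adjusted p = 0.44), the narrowest interval of the 10 members. The gene, on chromosome 13 from 113093824 to 113100981, lies wholly inside the span of Cdc20b, which had 6 to 14 counts per library.

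Gzmb, the granzyme that activates caspases in target cells, lies on chromosome 14 from 56258836 to 56262334. It had 219 and 197 normalized counts in sham and 187 and 195 in post-PNX ECs, and the groups were separated by less than 3 normalized counts. This was a log2 fold change of -0.13 (SE 0.11, interval -0.35 to 0.09, edgeR adjusted p = 0.31). Prf1 encodes perforin, the pore former without which granzymes do not reach the target, on chromosome 10 from 61297751 to 61304684. Its normalized counts were 189 and 211 in sham and 171 and 166 in post-PNX ECs. The post-PNX pair lay below the sham pair, with means of 168 ± 3.51 and 200.2 ± 15.3 (SD, n = 2). This was a log2 fold change of -0.24 (SE 0.12, interval -0.47 to -0.01) and did not pass, with an adjusted p of 0.058 by the edgeR quasi-likelihood test.

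Nkg7, on chromosome 7 from 43437138 to 43438246, encodes a granule membrane protein needed for efficient degranulation. It differed more between the 2 post-PNX libraries than between the groups, with 197 and 207 normalized counts in sham and 236 and 150.4 in post-PNX ECs. This was a log2 fold change of -0.04 (SE 0.12, interval -0.29 to 0.20, edgeR adjusted p = 0.77). It was -0.42 without the first post-PNX library and 0.23 without the second, so that its direction was set by 1 library.

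The T-box factors were the least abundant members and showed no difference past the threshold. Eomes, needed for NK cell maturation and on chromosome 9 from 118478186 to 118486132, had 77.9 and 80.5 normalized counts in sham and 79.6 and 61.3 in post-PNX ECs. The groups overlapped, with a log2 fold change of -0.16 (SE 0.18, edgeR adjusted p = 0.45), and 547 bases of the gene lie under the annotated Gm33408, not analysed here. Tbx21 encodes T-bet, which drives the cytotoxic and interferon gamma programme, on chromosome 11 from 97098007 to 97115331. It had 69.8 and 73.4 normalized counts in sham and 86.5 and 69.1 in post-PNX ECs, and was the member with a positive log2 fold change, 0.13 (SE 0.18, interval -0.23 to 0.49, edgeR adjusted p = 0.53). The groups overlapped. In 7 of the 10 members (Ncr1, Klrb1c, Gzma, Prf1, Nkg7, Eomes and Tbx21) the second post-PNX library was the lowest of the 4.

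Per length, the order of the levels was nearly the same in both groups. In sham ECs Gzma came first with a mean of 22.1 TPM, followed by Klrd1 (9.13 TPM), Nkg7 (8.60 TPM), Gzmb (5.09 TPM), Klre1 (3.67 TPM), Prf1 (3.38 TPM), Ncr1 (3.16 TPM), Klrb1c (2.51 TPM), Tbx21 (0.972 TPM) and Eomes (0.751 TPM). Klrd1 and Nkg7 overlapped between sham libraries, as did Prf1 and Ncr1, while the other neighbours did not. After PNX Nkg7 (8.05 TPM) stood before Klrd1 (6.05 TPM), with Nkg7 at 9.83 and 6.27 TPM and Klrd1 at 5.997 and 6.10 TPM in the libraries. Ncr1 and Klrb1c overlapped after PNX at mean levels of 2.46 and 2.35 TPM. Among all tested genes, the members' mean counts lay between the percentiles 15.04 (Tbx21) and 37.5 (Gzma).

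**Figure D2:**
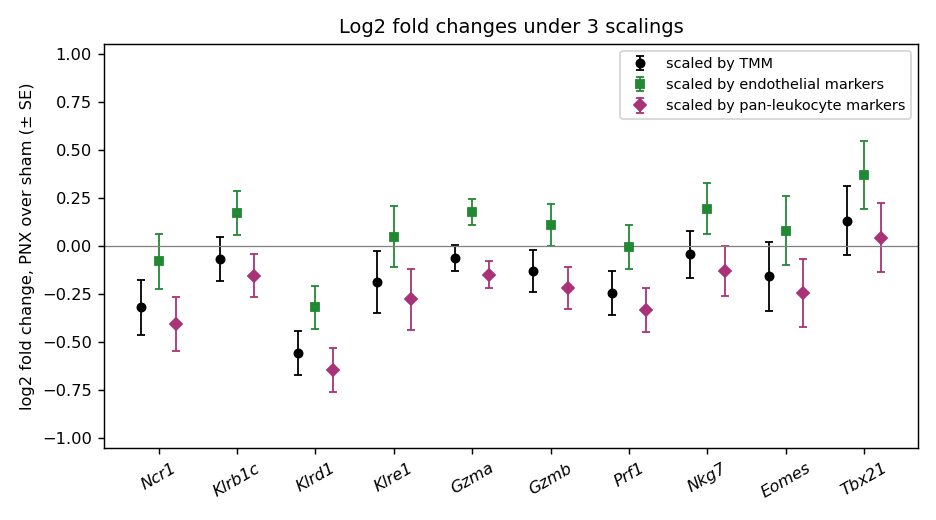
Log2 fold change (PNX minus sham) of each member, with bars of 1 SE, under the usual library scaling (TMM) and with libraries scaled to 12 endothelial or 10 pan-leukocyte marker genes. Klrd1 stays below 0 under all 3 scalings, at -0.56, -0.32 and -0.64, whereas Gzma, Gzmb, Klrb1c, Klre1, Nkg7 and Eomes move from below 0 to above 0 with the endothelial scaling.

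The sign of 6 of the 10 members depended on the scaling. Scaling to 12 endothelial genes, of which 10 fell and 1 rose in the TMM fit, raised the median of all genes by 0.24 and left 3 of 10 members below 0 (Klrd1, Ncr1 and Prf1). Scaling to 10 pan-leukocyte genes lowered the median of all genes to -0.09 and that of the members to -0.23. In the endothelial scaling Klrb1c was at 0.17, Klre1 at 0.05, Gzma at 0.18, Gzmb at 0.11, Nkg7 at 0.19 and Eomes at 0.08. The members' median was below that of all genes under all 3 scalings, at -0.14 against 0.00, 0.09 against 0.24 and -0.23 against -0.09. A scaling shifts all genes almost alike, so these 3 comparisons are 1 result and not 3.

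The other lectin-like receptors of NK cells showed no change past the threshold. Of 25 listed, 19 were tested and 0 passed the edgeR test in either direction, with a median log2 fold change of 0.06. At an unadjusted p under 0.05 there were 3 higher and 1 lower, the DESeq2 Wald test also put 0 past its threshold, and endothelial scaling put 7 higher at a median of 0.30. The partner chains of CD94 had log2 fold changes of opposite sign. Klrc1, the inhibitory NKG2A, had 75.2 and 60.1 normalized counts in sham and 52.1 and 44.6 in post-PNX ECs (log2 fold change -0.49, edgeR adjusted p = 0.033). Klrc2, the activating NKG2C, had 29.0 and 20.4 in sham and 34.4 and 42.3 in post-PNX ECs (0.61, edgeR adjusted p = 0.047). In both genes the groups did not overlap and neither passed, although Klrc1 did when counts were summed over transcripts (-0.48, edgeR adjusted p = 0.0056). Klrc genes are similar enough in sequence that reads may have been split between them. Klri1, whose product pairs with that of Klre1, was at -0.50 (edgeR adjusted p = 0.098), Klrk1 (NKG2D) at 0.06 (0.59), Klrg1, a receptor of mature NK cells, at 0.50 (0.040), and Klra2, the most abundant of the list per length, at -0.00 (0.97). Klrc1, Klrk1 and Klrg1 were picked out after their values were seen.

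Of 12 other effector genes, 6 were tested, and 1 fell by the edgeR test, beside 27.8% of all genes. Tnfsf10, which encodes the death ligand TRAIL, was at a log2 fold change of -0.10 (adjusted p = 6.4e-06, edgeR) on 18350 to 24139 counts per library, but turned to 0.14 (adjusted p = 3.8e-08) with endothelial scaling. Gzmc was at -0.91 with 15, 18, 5 and 11 counts (edgeR adjusted p = 0.072), and Gzmm, the granzyme typical of NK cells, at -0.31 (0.20). Fasl, the other death ligand, was at -0.30 (0.21), Ctsw, a cathepsin of cytotoxic lymphocytes, at -0.06 (0.60), and Cst7, a cathepsin inhibitor, at 0.32 (0.20). Gzmd, Gzme, Gzmf, Gzmg and Gzmn had 0 counts in every library, which allows up to 3 counts or 0.0589 to 0.0725 CPM, counting error alone, and Gzmk had 1 or 2 counts.

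Of 16 genes of granule loading and release, 5 rose and 5 fell by the edgeR test, shares near those of all genes (29.3% and 27.8%), with a median of 0.03. The balance turned with the scaling, to 10 higher and 2 lower with endothelial scaling and to 3 higher and 8 lower with pan-leukocyte scaling. Ctsc, the protease that activates granzymes, rose by 0.52 on the log2 scale (edgeR adjusted p = 6.3e-31), while Unc13d, which primes granules for fusion, was at a log2 fold change of -0.44 (adjusted p = 3.0e-14). Lamp1, a lysosome protein used as a degranulation marker, rose by 0.09 (adjusted p = 1.0e-05) but was at -0.0023 with pan-leukocyte scaling. Ctsc and Lamp1 are also made by many other cells of the lung.

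Signalling genes of NK cells, many of them shared with T cells or myeloid cells, split by the edgeR test. Of 22 tested, 5 were higher and 9 lower, beside 29.3% and 27.8% of all genes. With endothelial scaling 6 were higher and 5 lower. Cd244 (2B4) rose by 0.86 (adjusted p = 7.4e-19) and Tyrobp, the adaptor DAP12 shared with macrophages, by 0.44 (adjusted p = 3.7e-23), while Cd96, shared with T cells, was at a log2 fold change of -0.87 (adjusted p = 2.7e-07). Of 16 transcription factors of NK and other innate lymphocytes, 3 rose and 8 fell by the edgeR test, but 6 were higher and 3 lower with endothelial scaling, which turned the median from -0.20 to 0.04. Nfil3 was called at 1.03 (adjusted p = 3.2e-28). Nfil3, needed for the NK lineage and also used by other cells, went from 787 and 837 to 1673 and 1643 normalized counts. Ikzf3 was at -0.87 (adjusted p = 5.1e-21) and Ets1, which ECs also use, at -0.20 (adjusted p = 2.1e-14). Tcf7, at -0.26, is in this list and in the T cell list. With endothelial scaling Ets1 (0.039, adjusted p = 0.072) and Tcf7 (-0.021, adjusted p = 0.6) did not pass.

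Of 16 receptors for cytokines and chemokines, 4 rose and 7 fell by the edgeR test, beside 29.3% and 27.8% of all genes. With endothelial scaling 6 were higher and 4 lower. S1pr1, an abundant endothelial receptor, was at a log2 fold change of -0.72 (adjusted p = 4.6e-43). The subunit through which NK cells receive IL-15, Il2rb, had 602 and 637 normalized counts in sham and 461 and 396 in post-PNX ECs, a log2 fold change of -0.52 (adjusted p = 3.8e-09). S1pr5, by which mature NK cells leave lymphoid organs, had 125 and 152 in sham and 98.3 and 102.5 in post-PNX ECs (-0.46, adjusted p = 0.0045). Both Il2rb and S1pr5, named after their values were seen, were lower without overlap. Marker genes of T cells were also lower in the same libraries, and the part of T cells in both values was not tested. Il2rb also passed with endothelial scaling (-0.29, adjusted p = 8.0e-04), whereas S1pr5 did not pass there (-0.22, adjusted p = 0.17), in the DESeq2 Wald test (adjusted p = 0.084), without the second sham library (-0.32, adjusted p = 0.095) or without the first (-0.42, adjusted p = 0.041) or second post-PNX library (-0.49, adjusted p = 0.015). Among 12 surface genes that separate NK cells from other innate lymphocytes, 6 rose and 4 fell, among them Itgam, a chain shared with macrophages and neutrophils, at 2.11 (adjusted p = 4.7e-57), Spn at -0.49 (adjusted p = 1.4e-15) and Tmem176a at 0.38 (adjusted p = 1.6e-23).

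Of 6 cytokines that cytotoxic lymphocytes secrete, 5 were higher after PNX by the edgeR test, with a median of 0.53. Of all genes, 29.3% were higher by this rule. Ifng, the interferon made by NK and T cells, had 50.7 and 38.7 normalized counts in sham and 84.5 and 82.5 in post-PNX ECs. On the log2 scale the fold change was 0.89 (SE 0.20, adjusted p = 7.4e-05). Xcl1, a chemokine for cross-presenting dendritic cells, had 22.6 and 30.6 in sham and 58.0 and 45.7 in post-PNX ECs, at 0.98 (SE 0.25, adjusted p = 5.7e-04). For both genes each post-PNX library lay above each sham library. Csf2 rose by 0.55 (adjusted p = 0.0035), Ccl4 by 0.50 (adjusted p = 4.3e-13) and Ccl3 by 0.14 (adjusted p = 9.7e-05, and 0.13 with pan-leukocyte scaling), and Ccl5 was at -0.06 (adjusted p = 0.54). Of these genes, 2 passed in the DESeq2 Wald test (Ifng at an adjusted p of 0.011, Xcl1 at 0.037 and Csf2 at 0.08 did not pass) and 3 without the first sham library or with pan-leukocyte scaling. Macrophages also make Ccl3 and Ccl4, and marker genes of macrophages were higher in the same libraries. The part of macrophages in the values of these cytokines was not tested.

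Of the 8 tested cytokines and chemokines that sustain or attract NK cells, 3 fell by the edgeR test and 0 rose. Of all genes, 27.8% fell and 29.3% rose by this rule. The median of the 8 was -0.22, and at an unadjusted p under 0.05 there were 5 lower and 0 higher. With endothelial scaling 1 was lower and 1 higher at a median of 0.02, and in the DESeq2 Wald test 1 was lower and 0 higher. Cx3cl1, an endothelial chemokine, went from 4829 and 4951 to 2838 and 2958 normalized counts (-0.76, edgeR adjusted p = 1.0e-31). The level of Il2 was low, at 12 to 17 counts per library (0.12, edgeR adjusted p = 0.80).

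Of 19 tested genes for the ligands that NK receptors read on target cells, 12 rose, 3 fell and 5 were called higher by the edgeR rule, with a median log2 fold change of 0.44. Of all genes, 29.3% rose, 27.8% fell and 5.9% were called higher. Ulbp1, which encodes the NKG2D ligand MULT1, had 166 and 178 normalized counts in sham and 651 and 644 in post-PNX ECs. Both of its post-PNX values were far above sham, at a log2 fold change of 1.91 (SE 0.09, adjusted p = 4.5e-29). The RAE-1 ligands of NKG2D rose too, with Raet1d at 1.96 (adjusted p = 3.3e-09) and Raet1b at 1.23 (adjusted p = 1.9e-07). Raet1a (1.13), Raet1c (0.76) and Raet1e (0.65) also passed the edgeR test. Raet1 genes are near-identical copies between which reads may have been split, so the genes counted above are not all separate results. Klrk1, the receptor for these ligands, was at 243 and 216 normalized counts in sham and 244 and 237 in post-PNX ECs. Clec2g was called at 1.94 (adjusted p = 3.5e-04) on 5 to 21 counts per library. Clec2d, the ligand of an inhibitory Klrb1 receptor, was at a log2 fold change of -0.56 (adjusted p = 4.0e-32), H2-T23, the Qa-1 gene read by CD94, of -0.26 and B2m, the class I light chain, of 0.09. H2-T23, named after its value was seen, was at -0.025 (adjusted p = 0.27) with endothelial scaling, and B2m was at 0.0011 (adjusted p = 0.96) with pan-leukocyte scaling. Clec2g did not pass without the first post-PNX library (1.78, adjusted p = 0.026). The DESeq2 Wald test put 8 of 17 higher and 3 lower.

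**Figure D3:**
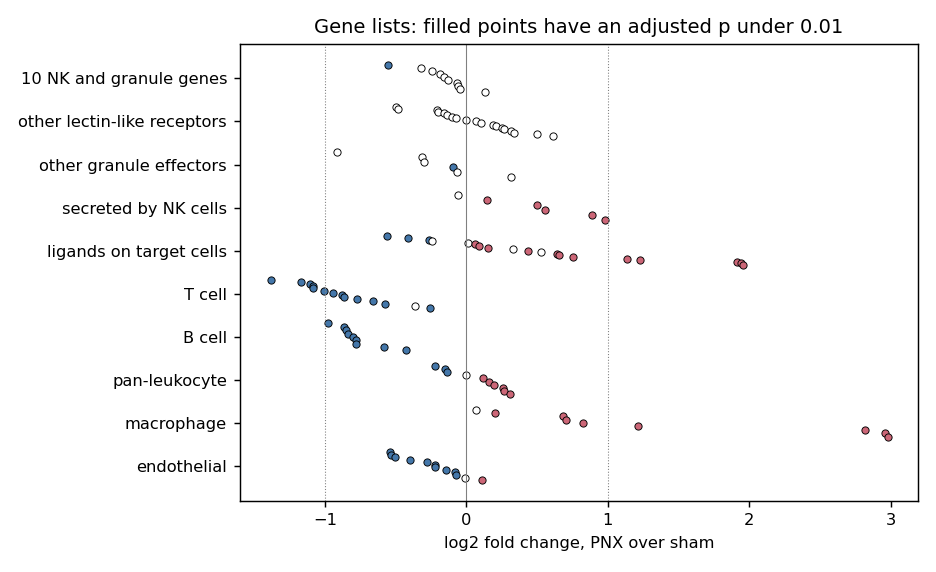
Log2 fold change (PNX minus sham) of every tested gene in 10 of the lists, 1 point per gene, filled where the edgeR adjusted p is under 0.01 (blue lower, red higher), with dotted lines at -1 and 1. The 10 members lie between -0.56 and 0.13 with 1 filled point, Klrd1, the T cell list lies wholly below 0 (median -0.91), and the ligands reach 1.96.

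Markers of other leukocytes moved in the same libraries. All 14 T cell genes had negative log2 fold changes, 13 fell by the edgeR test and 6 were called, with a median of -0.91 (B cell genes 9 of 9 lower, median -0.80). Those called were Themis (-1.38), Cd28 (-1.17), Trat1 (-1.10), Cd8a (-1.08), Cd6 (-1.08) and Cd4 (-1.01). The summed level of the T cell list after PNX was 66.9% of sham and that of the B cell list 60.5%, beside 89.6% for the 10 members. With endothelial scaling the T cell genes had a median of -0.67 and 12 fell. The pan-leukocyte list stood at 106% of sham (6 of 10 higher, 3 lower) and the macrophage list at 131% (8 of 9 higher, 4 called), with C1qb at 2.98. Of 7 neutrophil genes 5 rose and 1 fell (2 and 2 with pan-leukocyte scaling), and of 8 mast cell and basophil genes 4 rose and 2 fell. In the mast cell and basophil list 3 genes were called higher, but its summed level after PNX was 75.3% of sham. By the edgeR rules 29.3% of all genes rose and 27.8% fell, with 5.9% called higher and 1.66% called lower.

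Set against the T cell genes in the same library, the NK and granule genes made up more after PNX. The ratio of the summed normalized counts of the 10 members to those of the 14 T cell genes was 0.318 and 0.317 in the sham pair against 0.452 and 0.398 after PNX. The ratio to the 9 B cell genes was 0.197 and 0.202 in sham and 0.309 and 0.282 after PNX. Against the 10 pan-leukocyte genes it was 0.0279 and 0.0284 in sham and 0.0251 and 0.0223 after PNX, so the direction turned with the list used. These ratios do not depend on library scaling, carry no test, and share their numerator. T cells also make Gzmb, Prf1, Klrd1 and Tbx21, and the part of T cells, macrophages or any other cell type in the values of the 10 genes was not tested.

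**Figure D4:**
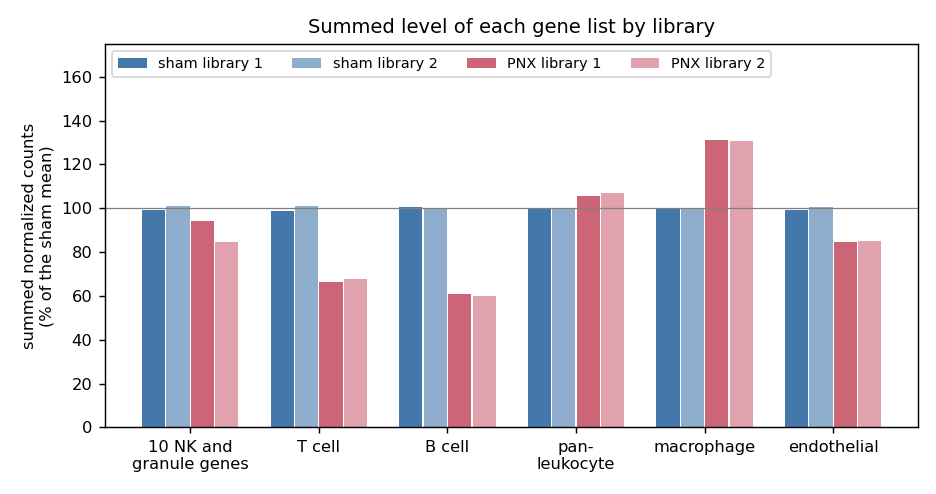
Summed normalized counts of the 10 members and of the T cell, B cell, pan-leukocyte, macrophage and endothelial lists in each library, as a percentage of the sham mean of the list. The members lie at 94.4 and 84.7% after PNX, above the T cell (66.3 and 67.6%) and B cell lists and below the macrophage list (131.1 and 130.7%).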

How the data were processed

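RNA was sequenced from CD31-selected lung ECs in 2 sham and 2 post-PNX libraries, grouped by their titles. The authors deposited, for each of 33068 RefSeq transcripts, whole-number counts without normalization, with FPKM and TPM values beside them. Libraries were stranded mRNA libraries read as paired ends. The submitters' processing notes name STAR and mm10, the counting program is not given in the sources used here, and whether counting used strand is not stated. A read could be counted for several transcripts of a gene, so the transcript with the most counts stood for its gene. The deposited FPKM values were not used, and the deposited TPM values served to compare levels between genes. Counts were tested in R 4.3.3 with edgeR 4.0.16 (filterByExpr, TMM factors of 0.9985 to 1.0026, quasi-likelihood F test without covariates, Benjamini-Hochberg over 16208 genes). The standard error is the log2 fold change divided by the square root of F. Normalized counts refer to a library of mean size after TMM. Thresholds follow the study's methods, and the study used DESeq2. The fit was tested on simulated data. Replicates differed little beyond sampling noise (mean chi-square per gene 1.76 in sham and 1.53 in PNX). Between a sham and a post-PNX library it was 133 and 118. How far the small spread between replicates covers the variation between mice was not tested. Alternatives were DESeq2 1.42.0, other scalings and filters, glmTreat, counts summed over transcripts, a replicate block and leaving out each library. Floors of 3 counts cover counting error only.

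The 10 genes and all lists (lectin receptors, effectors, granule release, signalling, factors, cytokine receptors, secreted cytokines, survival cytokines, target ligands, surface genes, and T cell, B cell, pan-leukocyte, macrophage, neutrophil, mast cell and endothelial markers) were chosen with earlier results of these data known. Named were all 10 genes and, per list, all genes if at most 6 were tested, otherwise up to 6, namely the highest and lowest log2 fold change, the highest TPM, and then called genes by size. Other genes named were chosen after their values were seen. The values of 1 gene that this rule names are not reported here. Promoter sequences came from RefSeq on GRCm38.p6, matched by symbol for 9 of the 10 genes.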

Additional observations from a re-analysis of the deposited data

How the results depend on the processing

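With 2 libraries per group, intervals for single genes at these counts are wide, and small differences were not detectable. The log2 fold changes of the 10 members were compared in 14 alternative fits, which gives 140 values. Direction and side of the threshold were kept in 127, the direction reversed in 11, and 2 no longer passed the adjusted p. Both of these were of Klrd1 (endothelial scaling, and glmTreat, which tests for a change beyond 1). A member that passed in neither fit counts as kept, and the fits share libraries, so the 127 are not independent. With endothelial scaling, called lower genes numbered 92 in place of 269, genes past the adjusted p 9183 higher and 1547 lower, members past it 0, and the share of called genes that were higher was 93.3% in place of 78.1%, all relative to a shift of 0.24 in the median of all genes. The scaling also turned Klrb1c to 0.17, Klre1 to 0.049, Gzma to 0.18, Gzmb to 0.11, Nkg7 to 0.19 and Eomes to 0.080. The filter at a mean of 50 counts, which tests fewer genes, gave 160 called lower, and glmTreat gave 604 called higher and 39 lower.

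Leaving out each library in turn gave ranges of -0.14 to 0.018 for Klrb1c, -0.13 to 0.0027 for Gzma, -0.42 to 0.23 for Nkg7, -0.37 to 0.0087 for Eomes and -0.048 to 0.27 for Tbx21. Without the second post-PNX library 6 of 10 members were below 0, and without the first all 10. Ncr1 (-0.47 to -0.19), Klre1 (-0.22 to -0.15), Gzmb (-0.20 to -0.05), Prf1 (-0.32 to -0.17) and Klrd1 (-0.64 to -0.48) stayed below 0. Replicate numbers 1 and 2 are shared by the groups but belong to different mice, and the differences between replicates correlated at 0.03 over 16208 genes. A replicate block gave 957 genes called higher and 272 lower, and 1 member past the adjusted p, and moved no member across a threshold.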
